A study of Homo sapiens with 12 samples.

Results

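Control HepG2 cells were followed over the first 3 h after transcription was blocked. HepG2 is a human liver cancer line that keeps many functions of hepatocytes. The cells carried the control siRNA (siNC), had been cultured for 48 h after transfection, and were given actinomycin D, which binds DNA and stops RNA polymerases, at 5 µg/ml. The 2 siNC libraries taken at 3 h were compared with the 2 taken at 0 h, and the members are the genes whose deposited count averaged at least 20 over all 12 libraries of the series, 12939 of 22148 genes. The other libraries were siNC at 6 h and cells given siRNAs against CPSF6 (siCPSF6) at 0, 3 and 6 h, in the same line, medium and drug, with 2 biological replicates a group. CPSF6, a subunit of cleavage factor Im, helps to choose where a transcript ends. It was not silenced in the cells described here.

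When transcription stops, the level of an RNA falls at the pace at which it is degraded, so a table of changes over 3 h ranks transcripts by how short-lived they are. Most mRNAs are degraded after their poly(A) tail has been shortened, followed by removal of the cap and digestion from the 5′ end or by the exosome from the 3′ end. Some 3′ untranslated regions (3′UTRs) hold short elements that speed this up, among them AU-rich elements, bound by ZFP36 family proteins, and elements bound by Pumilio proteins. Short-lived mRNAs are known to encode regulators whose dose has to change quickly, while mRNAs of secreted liver proteins, ribosomal proteins and metabolic enzymes are known for long lives.

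The deposited counts had been scaled by the authors to an equal upper quartile, 660.5 or 661 in every library, and rounded. Their totals, 19539208 and 19133288 at 0 h and 28252230 and 27116830 at 3 h, therefore follow that scaling and are not read depths. ERCC spike-in RNA had been added to 5 µg of total RNA, so a second scale sets the sum of the spike-in rows equal in every library. A level on that scale is therefore relative to the mass of RNA taken, which is largely rRNA. It is no level per cell, and fewer cells and less RNA per cell cannot be told apart. The spike-ins took 1.125% and 1.182% of the counts at 0 h and 1.321% and 1.28% at 3 h. All 14 hepatocyte markers had a mean of at least 20, and their TPM summed to between 24770.8 and 26224.6 at 0 h and between 30867.5 and 33118.3 at 3 h. Of 18 genes that mark stroma, endothelium or immune cells 11 had a row, COL3A1 was at 0 in all 4 libraries, and their TPM summed to 428.7 to 571.6 at 0 h and 495.2 to 659.4 at 3 h. Mean TPM at 0 h was 27.3 for ACTA2, 1.72 for CD14 and 0.144 for COL1A1. Most of that sum therefore came from other genes of this list, so markers of other cell types were not all absent. CPSF6 itself stood at 3244 and 3059 spike-in scaled counts at 0 h and at 3017 and 3167 at 3 h, a log2 difference of -0.03 (SE 0.16) that did not pass.

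AU-rich elements are shown first as examples of the sequence that ZFP36 proteins bind; the genes were picked for carrying one and for their fall. The stretches are 3′UTR sequence of GENCODE release 29 transcripts on hg38, 5′ to 3′ on the coding strand, with the nonamer TTATTTATT, the core of strong AU-rich elements, in capitals. It holds the pentamer ATTTA, was searched on the coding strand alone, and lies in 8.03% of the 3′UTRs of the 11650 members with a coding transcript. Shown are the 8 list members with the largest falls, a mean count of at least 100 and 10 bases of 3′UTR on either side of the first nonamer.
SOX9, chr17:72125498-72125526, + strand: cttgctaaaaTTATTTATTttgtaaggag
PPM1D, chr17:60664780-60664808, + strand: tgagtgtattTTATTTATTtattattttg
ZFP36L2, chr2:43223448-43223476, - strand: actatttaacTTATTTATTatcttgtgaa
HAMP, chr19:35285067-35285095, + strand: cctcccttccTTATTTATTcctgctgccc
PLK2, chr5:58454066-58454094, - strand: aataaactttTTATTTATTacagcccaaa
ZFP36L1, chr14:68788077-68788105, - strand: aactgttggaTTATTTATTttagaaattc
FBXO45, chr3:196588613-196588641, + strand: ttgtttaaaaTTATTTATTgattatttat
FOSL2, chr2:28416355-28416383, + strand: atttattttaTTATTTATTttaaatgttt
The 8 genes have different roles. SOX9 and FOSL2 are transcription factors, PPM1D is a phosphatase that shuts off p53 signalling, PLK2 is a kinase induced by p53, HAMP encodes the iron hormone hepcidin, FBXO45 is a ubiquitin ligase adaptor, and ZFP36L1 and ZFP36L2 themselves bind AU-rich elements and recruit the deadenylase. Their log2 changes over 3 h, spike-in scaled, ran from -4.74 for SOX9 to -2.66 for FOSL2.

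How many genes fell depended on the scale. A change is given as the log2 difference between the group means of log2(value + 1), tested with limma with Benjamini-Hochberg adjustment over all genes tested, and a gene is called at an adjusted p under 0.05. As deposited, 3327 genes were lower at 3 h (25.7% of those tested) and 5931 higher (45.8%), with a median change of 0.26 over all genes. Scaled to the spike-in sum, 6309 were lower (48.8%) and 535 higher (4.13%), with a median of -0.43. The number higher on the spike-in scale was not stable: it was 348 without siNC 0 h replicate 1, 325 without siNC 0 h replicate 2, 339 without siNC 3 h replicate 1, 312 without siNC 3 h replicate 2 and 1118 with only the siNC 0 h and 3 h libraries in the fit. The scales differ by an almost constant shift of 0.69, so every gene lower as deposited was also lower on the spike-in scale, and the 535 higher on the spike-in scale were all higher as deposited. Of the 5931 genes higher as deposited, 460 were lower and 4936 were not called once scaled to the spike-ins. In the TPM table, 5222 of 12188 genes were lower (42.8%) and 1408 higher (11.6%) as deposited, with a median of -0.24, and 4994 were lower (41.0%) and 497 higher (4.08%) after spike-in scaling, with a median of -0.31. With median-ratio scaling of the counts, 4162 were lower and 4523 higher, so that 52.1% of the calls were higher against 64.1% as deposited. Among 11847 genes tested in both tables, 2988 were lower and 365 higher in both tables on both scales. Below, "lower on both scales" and "higher on both scales" mean called in both fits of the counts (25.7% and 4.13% of genes tested), and a change without further remark is on the spike-in scale.

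If loss is taken as first order, a log2 change of -3 over 3 h corresponds to an apparent half-life of 1 h. By that measure 332 genes (2.6%) had an apparent half-life under 1 h, 1691 of 1 to 2 h, 1432 of 2 to 3 h, 2568 of 3 to 6 h and 3849 of more than 6 h, while 3067 (23.7%) showed no fall. These are values per mass of total RNA, and the classes move with the scale. The fastest class also moved with the unit: 69 of its 286 genes tested in the TPM table stayed under -3 there, where adding 1 weighs more on small values, and 226 of the 332 did with 10 added to the counts.

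The 12 largest falls among genes lower on both scales, with a mean count of at least 100 and no overlap between the 3 h and 0 h libraries, were spread over several kinds of regulator. The largest was the mitochondrial transcript MT-ND6, described with its neighbours below. CCDC71, a gene of the short arm of chromosome 3 (chromosome 3, 49162535 to 49166321 of hg38, 3′UTR of 270 bases), stood at 493 and 548 spike-in scaled counts at 0 h and at 8.9 and 6.7 at 3 h (log2 -5.90, SE 0.37, adjusted p from limma 3.3e-15). BAMBI, a decoy receptor that dampens BMP and TGF-beta signals (chromosome 10, 28677342 to 28682939), stood at 484 and 514 at 0 h and at 4.5 and 14.4 at 3 h (-5.77, SE 0.38). The libraries of the groups did not overlap in either gene, which the choice required, and the 3 h values rest on few counts.

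NFKBIA, which encodes the inhibitor that holds NF-kB in the cytoplasm (chromosome 14, 35401511 to 35404749), fell from 2537 and 3128 spike-in scaled counts to 38.3 and 72.7 (log2 -5.71, SE 0.35, adjusted p from limma 8e-09). That left 1.91% of the starting level, an apparent half-life of 31.5 min. MYC, the growth-promoting transcription factor (chromosome 8, 127735434 to 127741434), stood at 4881 and 4644 at 0 h and at 133 and 97.6 at 3 h (-5.37, SE 0.18, adjusted p 4.7e-29 in limma). Its apparent half-life was 33.5 min, and the times differed 41.5-fold, far more than the libraries of either time.

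The remaining genes of the 12 each kept between 2.25% and 3.69% of their level. DDIT4, an inhibitor of mTORC1 induced by stress, had 2827 and 1985 spike-in scaled counts at 0 h and 65.0 and 42.1 at 3 h. DUSP6, the phosphatase that switches off ERK, had 1574 and 1130 at 0 h and 39.2 and 23.9 at 3 h. TRIB1, a pseudokinase that directs C/EBP factors to degradation, had 1517 and 1710 at 0 h and 47.2 and 46.9 at 3 h. That both 3 h libraries lay below both 0 h libraries was a condition for choosing these genes. HES1, the repressor downstream of Notch, changed by -5.04 (SE 0.36). NEDD9, an adhesion scaffold with the highest level of these genes, had 8868 and 5985 at 0 h and 252 and 205 at 3 h (-5.00, SE 0.18). DDX20, a helicase of the SMN complex, changed by -4.76 (SE 0.26). Of the 12, 11 have a 3′UTR in their representative transcript, and 0 of those 3′UTRs hold the nonamer; MYC holds 4 copies of the pentamer and BAMBI 5.

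**Figure D1:**
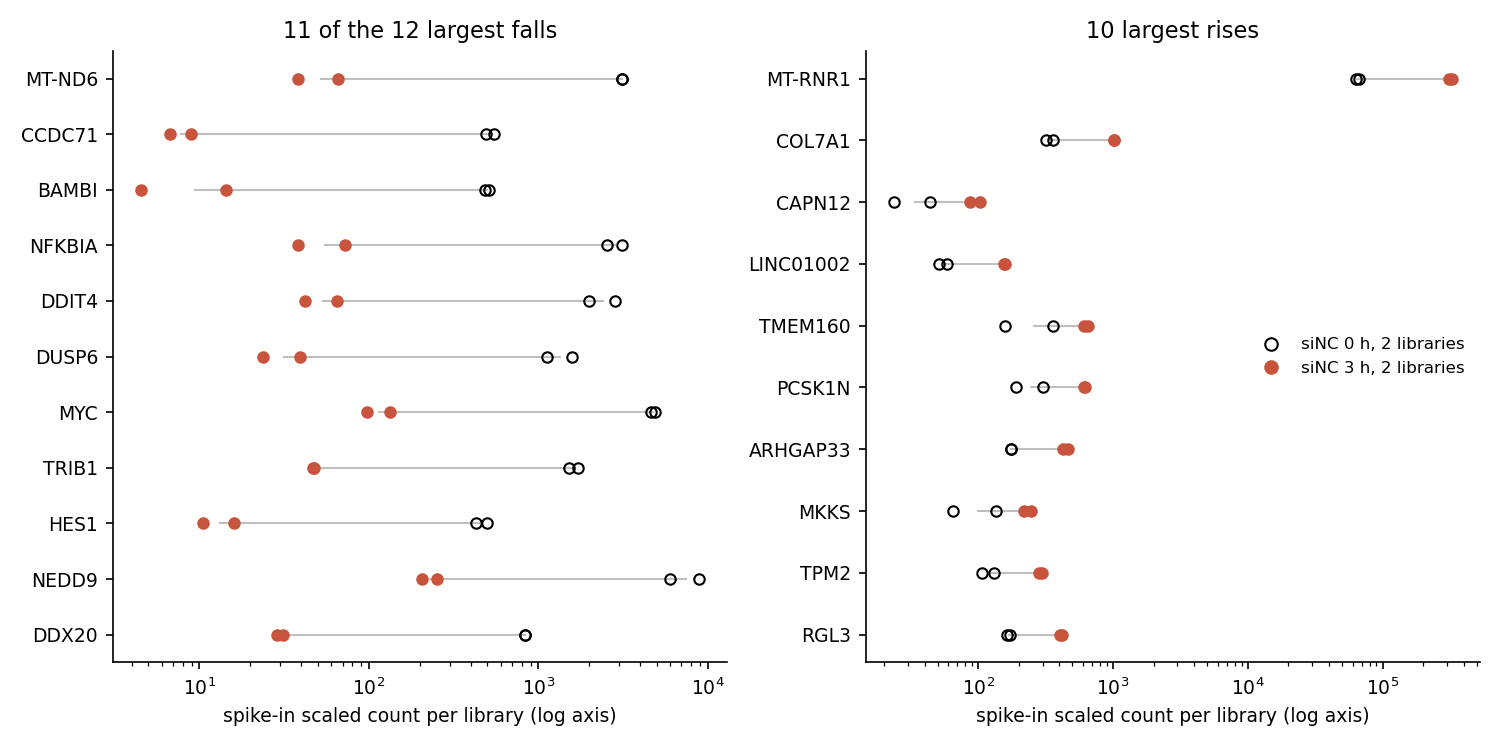
Spike-in scaled counts (log axis) of 11 of the 12 largest falls and the 10 largest rises in the 2 siNC libraries at 0 h (open) and the 2 at 3 h (filled), with a line between group means. MYC drops from 4881 and 4644 to 133 and 97.6, while MT-RNR1 goes from 66822 and 63298 to 312930 and 326237; the genes were chosen for having no overlap between the times.

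The transcription factors switched on first by growth signals were lost together. Of 23 immediate early genes tested, 20 were lower on both scales and 0 higher, and the median change was -2.66 against -0.43 over all genes. IER3, a survival factor of the early response, stood at 1638 and 1150 spike-in scaled counts at 0 h and at 99.7 and 76.6 at 3 h (-3.96, SE 0.21). JUN, a subunit of AP-1, stood at 1617 and 1584 and then at 125 and 102 (-3.81, SE 0.18). The JUN libraries differed 14.0-fold between times and far less within one. KLF10 changed by -4.20 and EGR1, with a mean count of 40.1, by -3.76 (SE 0.39). JUND, another AP-1 subunit, fell by 1.37 (SE 0.21). FOS had a mean under 20 and was not tested.

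Feedback inhibitors of growth factor signalling were nearly all lower. In the list of DUSP and Sprouty genes 13 of 15 were lower on both scales, and the median change was -2.60. ERRFI1, which inhibits the EGF receptor, stood at 10467 and 8712 at 0 h and at 702 and 645 at 3 h (-3.83, SE 0.15). DUSP1, a phosphatase of p38 and JNK, changed by -3.95 (SE 0.33), SPRY2 by -4.02 with a wide error (SE 0.60), DUSP16 by -2.74 and SPRED2 by -2.60. DUSP9 was the exception, at 13230 and 14546 at 0 h and 15000 and 17414 at 3 h (0.22, SE 0.15), which did not pass.

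BMP and TGF-beta targets moved in the same direction, 13 of 15 being lower on both scales with a median of -2.60. ID1, ID2 and ID3 encode proteins that block basic helix-loop-helix factors. ID1 went from 10570 and 13797 spike-in scaled counts to 725 and 914 (-3.89, SE 0.16), and ID2 from 9515 and 10421 to 664 and 725 (-3.84, SE 0.18). ID3 changed by -4.53 (SE 0.29). HAMP, a direct BMP target in liver, went from 1788 and 2483 to 173 and 248 (-3.34, SE 0.36). SMAD7, the inhibitory SMAD, changed by -2.82 and TGIF2, a corepressor, by -3.22.

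In the NF-kB list 9 of 20 were lower on both scales and the median was -0.95, so the fall of NFKBIA was far from typical. NFKBIE, a related inhibitor, stood at 491 and 508 at 0 h and at 56.1 and 54.5 at 3 h (-3.15, SE 0.27). BCL3 changed by -2.29 and TNFAIP3, a ubiquitin-editing inhibitor of the pathway, by -2.17. NFKB1, a subunit of the factor itself, changed by -0.98 (SE 0.17). Among 13 suppressors of cytokine signalling and PIM kinases 11 were lower on both scales (median -1.67). PIM3 changed by -3.03, SOCS6 by -2.29, PIM1 by -2.20 and SOCS3, at a mean count of 23.6, by -3.50 (SE 0.49). STAT3, the factor that SOCS3 restrains, stood at 3972 and 3829 at 0 h and at 3584 and 3781 at 3 h (-0.08, SE 0.15) and did not pass.

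Stress pathways were mixed. Of 28 p53 targets 15 were lower on both scales and 0 higher (median -1.23). SESN2, an inhibitor of mTORC1, stood at 1153 and 1224 spike-in scaled counts and then at 69.4 and 81.3 (-3.96, SE 0.22), and PPM1D at 1197 and 1084 and then at 87.2 and 59.3 (-3.97, SE 0.22). PLK2 changed by -3.24 and CDKN1A, the p21 inhibitor of cyclin-dependent kinases, by -2.26 (SE 0.17). MDM2, the ligase that degrades p53, had libraries at 6519 and 7522 at 0 h and at 2577 and 3583 at 3 h (-1.20, SE 0.32), and lost its call when siNC 0 h replicate 2 was left out (-1.10, adjusted p 0.056 in limma). BAX, which permeabilises mitochondria, did not pass (-0.10, SE 0.15).

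In the BCL2 family 7 of 17 were lower on both scales (median -0.69). The anti-apoptotic MCL1 stood at 5443 and 4982 and then at 1169 and 1012 (-2.26, SE 0.15), the anti-apoptotic BCL2L1 changed by -1.67, and BBC3, a p53-induced killer also known as PUMA, by -2.91. In the unfolded protein and integrated stress response 11 of 27 were lower on both scales (median -0.52). DDIT3 fell by 4.80 (SE 0.39), TRIB3 by 3.61 (SE 0.16) and XBP1 by 3.16 (SE 0.16). XBP1, the factor spliced by IRE1, stood at 13459 and 12629 at 0 h and at 1382 and 1543 at 3 h. ATF4, whose level is set mainly by translation, fell by 0.69 (SE 0.15). The chaperone HSPA5 stood at 43439 and 41564 and then at 40585 and 41031 (-0.06, SE 0.13).

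The mRNAs of factors that define the hepatocyte were short-lived as well. Of 23 hepatocyte transcription factors 15 were lower on both scales and the median was -1.71. FOXA1, a pioneer factor of liver enhancers, stood at 3797 and 4261 spike-in scaled counts and then at 169 and 222 (-4.37, SE 0.19). FOXA2 changed by -3.54 and NR0B2, the repressor induced by bile acids, by -4.59 (SE 0.23). CEBPA stood at 7183 and 9085 and then at 686 and 1043 (-3.25, SE 0.40). HNF4A, the nuclear receptor at the centre of the liver network, went from 9686 and 9574 to 3431 and 3885 (-1.40, SE 0.15). NR1H3, the oxysterol receptor, did not pass (-0.19, SE 0.18). The list is not uniform: apparent half-lives were 0.687 h for FOXA1 and 2.14 h for HNF4A.

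Other DNA-binding factors were similar. Among 24 homeobox and SOX genes 19 were lower on both scales (median -1.77). SOX9 stood at 5400 and 5094 and then at 192 and 199 (-4.74, SE 0.17), SOX4 changed by -2.67 and HHEX, a homeobox factor of liver development, by -2.54. KRAB zinc finger genes, which encode repressors of transposons and genes, were lower on both scales in 55 of 94 cases, with 0 higher and a median of -1.47. Of these, ZNF114 stood at 544 and 626 and then at 39.2 and 40.2 (-3.84, SE 0.25), ZNF200 changed by -3.67 and ZNF274 by -3.45. Many have low counts. A minimum mean count of 100 takes members with lower counts out of the test. With it the number lower on the spike-in scale was 39, in place of 84 of 94. Reads of related genes can be split between family members. Clock genes fell in 11 of 18 cases on both scales (median -1.3): NFIL3, a repressor of the clock output genes, stood at 1695 and 1330 and then at 95.3 and 108 (-3.87, SE 0.19), NR1D1 changed by -3.47 and TEF by -1.96.

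The proteins that govern mRNA decay had short-lived mRNAs only in part. Of 15 AU-rich element binding and deadenylation regulators 8 were lower on both scales (median -1.29). ZFP36L2 stood at 4045 and 4422 spike-in scaled counts and then at 290 and 324 (-3.78, SE 0.17). BTG2 and TOB1, adaptors of the CCR4-NOT deadenylase, changed by -3.50 and -3.21, ZFP36 by -3.32 and ZFP36L1 by -2.84. ELAVL1, which stabilises AU-rich mRNAs, fell by 0.65, and HNRNPD, also known as AUF1, did not pass (-0.18, SE 0.14). Of 54 decay enzymes and nonsense-mediated decay factors 19 were lower on both scales and 1 higher (median -0.66, close to that of all genes). SMG8, a regulator of the kinase of nonsense-mediated decay, was the outlying gene, with 1416 and 1476 at 0 h and 81.0 and 88.0 at 3 h (-4.08, SE 0.19). CNOT4 changed by -3.04, CNOT2 by -2.12, and the 5′ exonuclease gene XRN1 by -0.66 (SE 0.18).

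Among ubiquitin ligase adaptors and other regulators listed as short-lived, 28 of 33 were lower on both scales (median -2.13). Members were picked as short-lived, with earlier results of these data known, so the high count follows in part from the choice. RHOB, a small GTPase induced by stress, stood at 7875 and 8343 and then at 446 and 460 (-4.16, SE 0.15). SIAH2, a ligase of the hypoxia response, changed by -3.59 and FBXO45 by -2.72. CCNL2, a cyclin in splicing speckles, was the 1 gene of the list higher on both scales (0.54, SE 0.14), at 4891 and 5042 at 0 h and 7198 and 7261 at 3 h.

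Cell cycle genes stood between these groups. Of 45 genes of G2/M and mitosis 15 were lower on both scales and 39 on the spike-in scale (background 48.8%, median -0.80). AURKA, the kinase of spindle poles, stood at 6611 and 6404 and then at 949 and 1089 (-2.68, SE 0.16), KIF18A changed by -3.08 and CDCA2 by -2.57. Of 58 replication and G1/S genes 22 were lower on both scales (median -0.54), with CDC25A, a phosphatase that activates CDK2, at -2.87, E2F3 at -2.29 and POLD3 at -2.22. Cholesterol genes were lower on both scales in 7 of 27 cases (median -0.64), a share close to the 25.7% of all genes tested. MVK, mevalonate kinase, changed by -1.68.

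**Figure D2:**
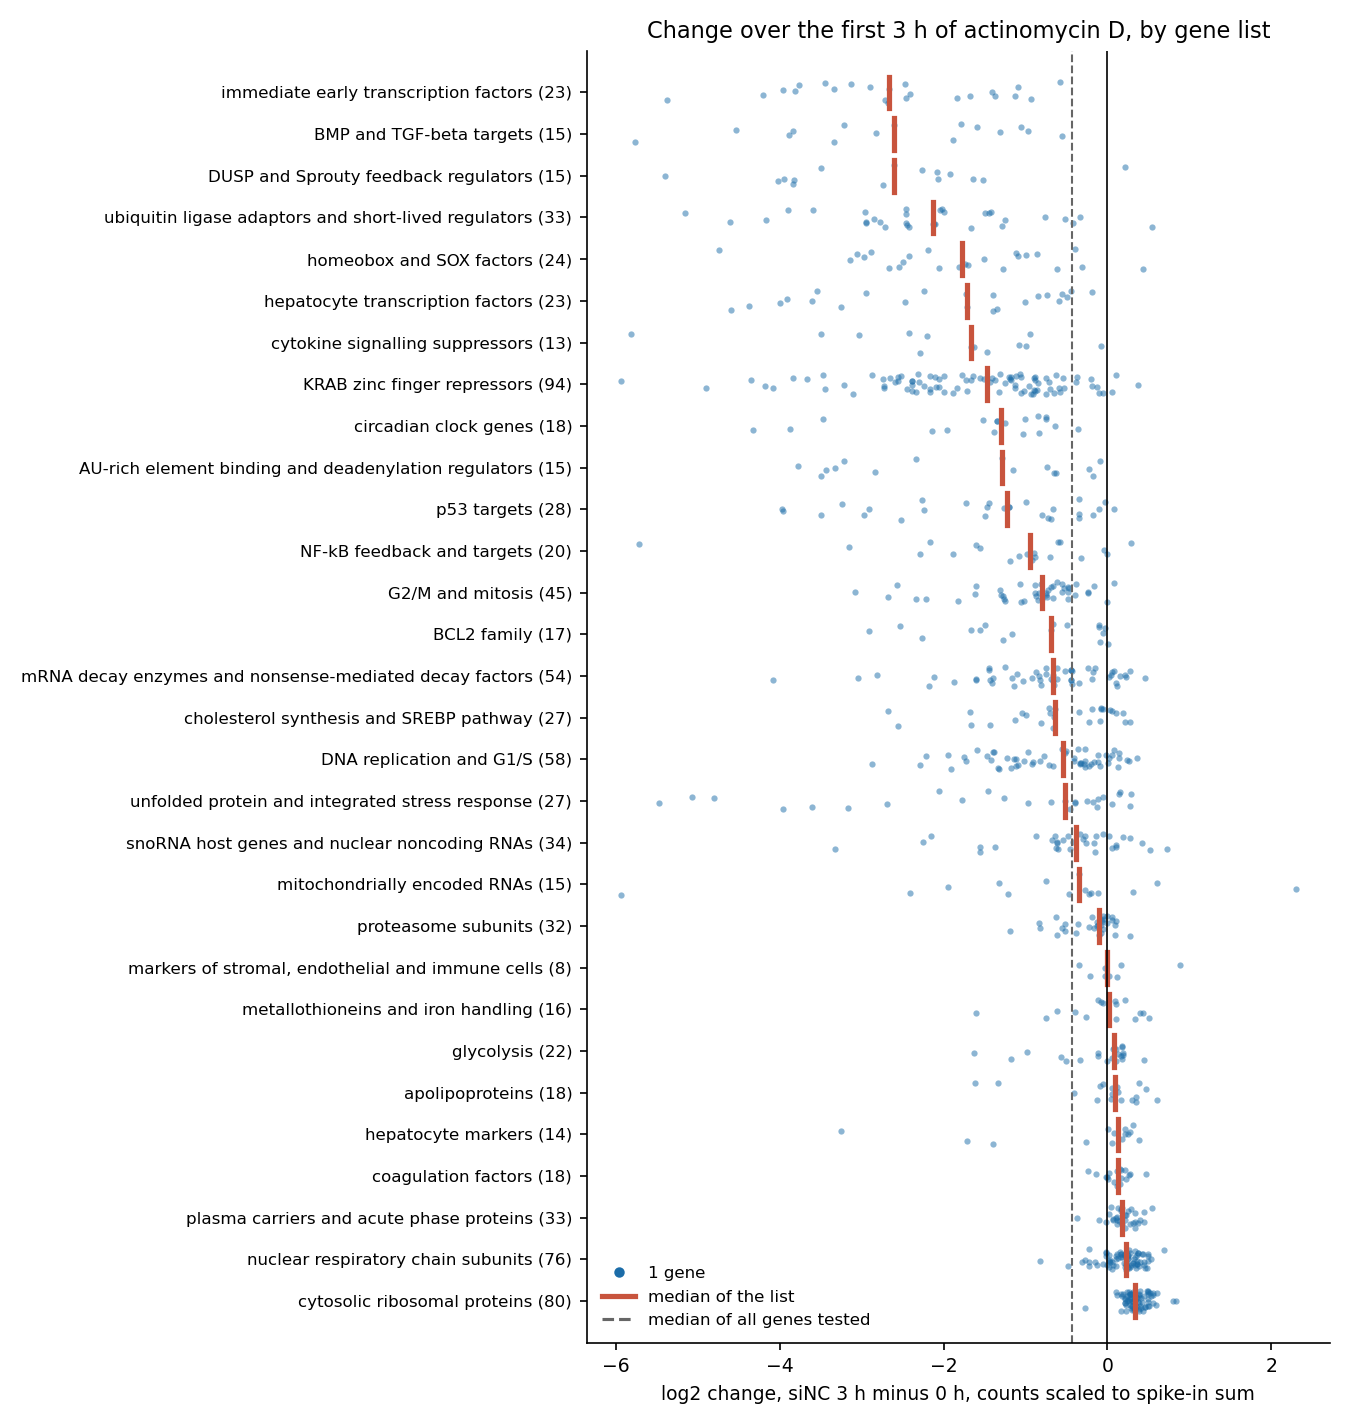
Log2 change from 0 to 3 h in siNC on the spike-in scale (x axis) for each gene of 30 lists (points), with the median of each list (bar) and of all genes tested (dashed, -0.43). Immediate early, BMP and DUSP lists have medians of -2.66 to -2.60, and ribosomal protein genes sit at a median of 0.33.

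Secreted liver proteins and housekeeping genes kept their level or stood slightly above it. Of 33 plasma carriers and acute phase proteins 31 were higher as deposited (background 45.8%) and 4 on the spike-in scale, with 0 lower on either, and the median change was 0.18. The 4 became 14 with only the groups compared, 8 with the replicate number as a block, 6 without siNC 0 h replicate 1, 0 without siNC 0 h replicate 2 and 1 without siNC 3 h replicate 1. ALB, albumin, stood at 205006 and 184895 spike-in scaled counts at 0 h and at 224188 and 216994 at 3 h (0.18, SE 0.13, adjusted p 0.25 in limma). RBP4, the retinol carrier, stood at 12816 and 12426 and then at 16104 and 17136 (0.40, SE 0.14), and the complement genes C3 and C4A changed by 0.34 and 0.45. These small rises were not stable: each of C3, C4A and RBP4 lost its call in at least 1 fit without a single library, with adjusted p up to 0.23. C4A also has a near-identical copy, C4B, between which reads can be split.

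Of 18 coagulation genes 17 were higher as deposited (background 45.8%). On the spike-in scale 0 were called in either direction (backgrounds 48.8% lower and 4.13% higher), with a median of 0.13. Prothrombin, F2, stood at 11207 and 9965 and then at 13031 and 12631 (0.28, SE 0.14), SERPINF2 changed by 0.26 and PROZ by 0.47, none of them called. With the replicate number as a block F2 passed (adjusted p 0.04 in limma) at the same value. With only the groups compared F2, SERPINF2 and PROZ all passed (adjusted p 0.0019, 0.0042 and 0.033 in limma), and 5 coagulation genes were higher and 1 lower. Of 18 apolipoprotein and lipoprotein genes 2 were lower on both scales and 3 higher (median 0.09). APOE, the ligand of remnant receptors, stood at 29608 and 32999 and then at 46255 and 49314 (0.61, SE 0.14, adjusted p 2e-04 in limma). APOL6 and APOL2, which are not secreted lipoprotein carriers, were the 2 that fell, by 1.62 and 1.34.

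Ribosomal protein genes stood above the plasma protein genes as deposited and on the spike-in scale, as medians. All 80 were higher as deposited (background 45.8%), 46 on the spike-in scale (background 4.13%) with 0 lower, and the median was 0.33. RPS21 stood at 4998 and 4335 and then at 7960 and 8678 (0.84, SE 0.15), RPS29 changed by 0.80 and RPL27 by 0.60, while RPL36AL, an autosomal copy of RPL36A, stood lowest at -0.27 (SE 0.16, not called). The number called rested on single libraries: it was 40 without siNC 0 h replicate 1, 12 without siNC 0 h replicate 2, 21 without one or the other siNC 3 h library, and 74 with only the siNC 0 h and 3 h libraries in the fit. Of 76 nuclear respiratory chain genes 75 were higher as deposited and 16 on the spike-in scale, with 2 lower (median 0.23). That count was 5 without one or the other siNC 0 h library, 9 without siNC 3 h replicate 1, 3 without siNC 3 h replicate 2, 26 with the replicate number as a block, 43 with only the groups compared and 6 in the TPM table. ATP5ME changed by 0.69 (SE 0.18) and ATP5F1D by 0.53, but neither passed in spike-in scaled TPM (0.22 and 0.33), and NDUFV3 fell by 0.82.

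Among 22 glycolysis genes 4 were lower (background 48.8%) and 1 higher (background 4.13%) on the spike-in scale (median 0.08). PFKFB3, which makes the activator of phosphofructokinase, stood at 601 and 461 and then at 164 and 176 (-1.63, SE 0.18), HK2 fell by 1.18, and the glucose transporter SLC2A3 by 0.57. SLC2A3 stood at 32940 and 21120 at 0 h and at 21246 and 14847 at 3 h, so its groups overlapped, and it lost its call without siNC 0 h replicate 1 (-0.25) or siNC 3 h replicate 2 (-0.31). Of 32 proteasome genes 8 were lower and 0 higher on that scale (median -0.10), and fewer were lower without siNC 3 h replicate 1. The share lower was below that of all genes, 48.8%, whose median was -0.43. The 3 with the smallest p in limma were PSMD12 (-1.19), ADRM1 (-0.83) and PSMC6 (-0.82). In the metallothionein and iron list 2 of 16 were higher (background 4.13%) and 2 lower (background 48.8%) on the spike-in scale (median 0.02). FTH1, the ferritin heavy chain, stood at 40610 and 48110 and then at 59944 and 66314 (0.51, SE 0.14), and without siNC 0 h replicate 1 it lost its call (0.39, adjusted p 0.051 in limma). FTL was at 349327 and 367262 and then at 396419 and 440216 (0.22, SE 0.13, not called). IREB2, the iron sensor, fell by 1.61 and NCOA4, the ferritin receptor of autophagy, by 0.75.

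Noncoding and marker genes were mixed. Of 34 snoRNA hosts and nuclear noncoding RNAs 6 were lower and 2 higher on both scales (median -0.38). SNHG12 stood at 594 and 570 and then at 57.9 and 56.5 (-3.32, SE 0.22), SNHG17 changed by -2.25 and SNHG7 by -2.15; all 3 overlap the snoRNAs they host. MALAT1, a speckle RNA, did not pass (-0.16, SE 0.16). NEAT1, the paraspeckle scaffold, stood at 6405 and 8859 and then at 11316 and 13784 (0.73, SE 0.27), but did not pass without siNC 0 h replicate 1 (0.50, adjusted p 0.14 in limma) or in spike-in scaled TPM (0.13). In the marker list of other cell types 8 of 18 genes could be tested and 1 was higher on both scales. That gene, COL1A1, was counted at 13.6 and 23.5 and then at 39.2 and 29.7 (0.89, SE 0.35) and lost its call without siNC 0 h replicate 1 (0.52, adjusted p 0.34 in limma). CD14 (-0.35) and ACTA2 (-0.21) did not pass.

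Mitochondrially encoded RNAs spanned the widest range of all the lists, from -5.93 to 2.30, although the mitochondrial genome is transcribed as long precursors that are cut apart. MT-ND6, the 1 protein-coding gene on the light strand of that genome (chromosome M, 14149 to 14673), stood at 3107 and 3141 spike-in scaled counts at 0 h and at 65.9 and 38.3 at 3 h (-5.93, SE 0.26, adjusted p 1.1e-22 in limma), an apparent half-life of 30.4 min. MT-ND2 stood at 192625 and 182768 and then at 34733 and 36099 (-2.41, SE 0.13). The cytochrome oxidase transcripts changed less: MT-CO2 by -0.75 (SE 0.13), MT-CO3 by -0.47 (SE 0.13) and MT-CO1 by -0.23 (SE 0.13, not called).

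The 2 mitochondrial ribosomal RNAs, which are transcribed ahead of the coding genes, went the other way. MT-RNR1, the 12S RNA (chromosome M, 648 to 1601), stood at 66822 and 63298 at 0 h and at 312930 and 326237 at 3 h, 4.91-fold higher (2.30, SE 0.13, adjusted p 1.3e-19 in limma), and its TPM was 3640 ± 13 and then 19000 ± 330 (SD, n = 2). MT-RNR2, the 16S RNA, changed by 0.61 (SE 0.13). The libraries were made for mRNA, and how far a change in the adenylation or capture of these RNAs enters the values was not tested. MT-ATP8 shows how the tables can part: it stood at 5958 and 5398 and then at 5316 and 5103 in counts (-0.12, SE 0.14), but at -1.01 in spike-in scaled TPM. It overlaps MT-ATP6 on its strand, as does MT-CO3.

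The 10 largest rises among genes higher on both scales were led by MT-RNR1. COL7A1, the anchoring fibril collagen (chromosome 3, 48564073 to 48595267), stood at 320 and 361 spike-in scaled counts and then at 1018 and 1012, 2.98-fold higher (1.57, SE 0.16, adjusted p 1.2e-11 in limma). ARHGAP33, a GTPase activating protein, stood at 174 and 173 and then at 467 and 427 (1.36, SE 0.19), but in spike-in scaled TPM it did not pass (1.26, adjusted p 0.14 in limma). TPM2, a tropomyosin, stood at 106 and 131 and then at 295 and 282 (1.29, SE 0.19), and RGL3 at 172 and 165 and then at 419 and 402 (1.28, SE 0.20). CAPN12 changed by 1.53, the noncoding LINC01002 by 1.5 and PCSK1N, a granin-like inhibitor of proconvertases, by 1.36 (SE 0.21).

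TMEM160 had the widest spread at 0 h of the 10 on this scale: it stood at 159 and 357 at 0 h and at 610 and 653 at 3 h (1.40, SE 0.38), and it did not pass with only the 0 h and 3 h siNC libraries in the fit (adjusted p 0.17 in limma). MKKS changed by 1.3 (SE 0.26); 2 overlapping entries carry this symbol, and the value is of the one that the rule named. The 535 genes higher on both scales had a median 3′UTR of 321 bases against 1031 over all members and a 3′UTR GC content of 55.8% against 42.7%. Of them 12.9% lie on chromosome 19, which holds 7.3% of all members, but also 12.0% of the 332 genes with a change below -3. Of the 535 genes 40.4% overlap another gene on their strand, against 34.8% of all members. These shares are a description of the called genes, with no test.

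Transcript features that the choice of members did not use varied with the change across genes. Over the 11650 members with a coding transcript in GENCODE 29 the median change was -0.45. It was -0.17 in the tertile with the shortest 3′UTRs (up to 565 bases), -0.46 in the middle tertile and -0.71 in the longest (from 1730 bases). Genes without the AU-rich nonamer had a median of -0.42, 730 genes with 1 copy had -0.78 and 206 genes with more had -0.80. Long 3′UTRs hold more of any motif, and within tertiles of length the nonamer went with a smaller gap: -0.41 against -0.17 among the shortest, -0.69 against -0.44 in the middle and -0.86 against -0.68 among the longest. The share lower on both scales was 42.8% of the 656 longest 3′UTRs with the nonamer and 35.4% of the 3228 without.

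The Pumilio element TGTANATA, searched in the same way and found in 26.28% of 3′UTRs, gave medians of -0.33 with 0 copies, -0.72 with 1 and -0.89 with more. Within tertiles of 3′UTR length the gap was -0.57 against -0.15, -0.80 against -0.36 and -0.80 against -0.61. Genes with 1 or 2 exons changed most: their median was -1.26 over 720 genes, of which 52.8% were lower on both scales, against -0.42 and 25.8% for 10930 genes with 3 or more exons. Among the 323 of the 332 fastest genes with a coding transcript 30.0% had 1 or 2 exons, against 6.2% of all members with one. Their 3′UTRs were not long: the median was 1076 bases, against 1031 over all members and 1508 in genes lower on both scales. The nonamer lay in 10.5% of them, against 8.0% of all members and 11.7% of genes lower on both scales. The GC content of the 3′UTR ordered the medians too, from -0.63 in the lowest tertile to -0.19 in the highest. The Spearman correlation across genes between the change and 3′UTR length was -0.28, and 0.24 for GC content. For the length of the whole transcript it was -0.31, for that of the coding sequence -0.21 and for exon number 0.09. Genes are not independent replicates, and these features are linked to one another. The medians by 3′UTR length, motif, GC content and the 2 classes of exon number kept their order with the longest annotated 3′UTR of each gene in place of the representative one.

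**Figure D3:**
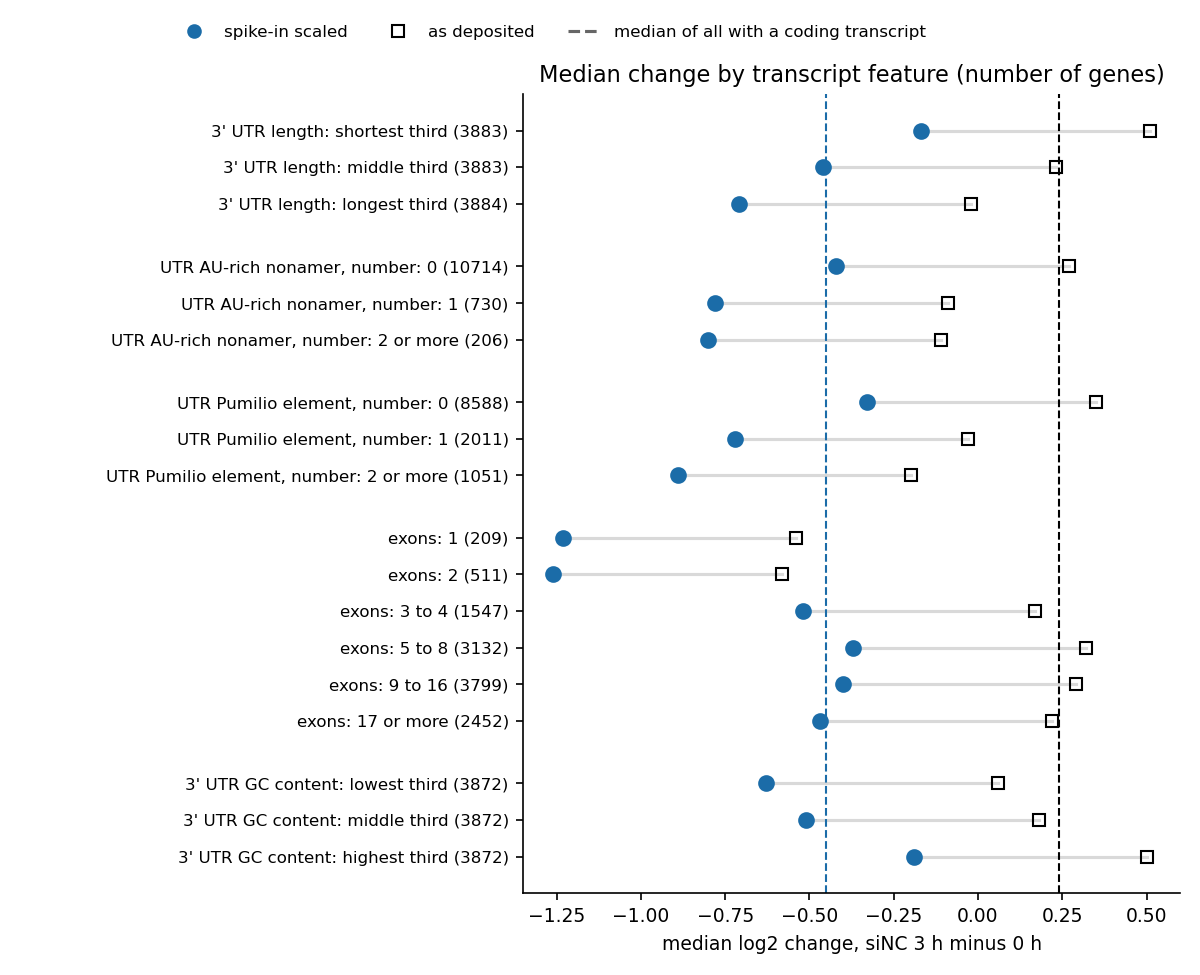
Median log2 change from 0 to 3 h in siNC for genes grouped by 3′UTR length, number of AU-rich nonamers, number of Pumilio elements, exon number and 3′UTR GC content, spike-in scaled (filled circles) and as deposited (open squares); dashed lines mark the medians over all 11650 genes, -0.45 and 0.24. Genes with 1 or 2 exons stand farthest to the left, at -1.23 and -1.26.

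Whether the losses of the first 3 h went on was tested as the step from 3 to 6 h minus the step from 0 to 3 h; both steps share the 3 h libraries. The step differed in 3260 genes, with 2849 showing a slower fall or a turn upward (22.0%) and 411 the reverse (3.18%). Without siNC 3 h replicate 1 these were 1604 and 182, without siNC 3 h replicate 2 they were 2209 and 174, and with the replicate number as a block 3711 and 763. As deposited the balance turned, with 2360 and 3447. Of the 332 genes with an apparent half-life under 1 h, which were chosen on the 0 to 3 h change that the step test subtracts, 101 were called lower again from 3 to 6 h. The mean deposited count at 3 h was under 20 in 81 of the 332, where little further fall could have been seen. Genes with apparent half-lives of 1 to 2 h changed by a median of -0.41 from 3 to 6 h.

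Of the 12 largest falls, 3 were called lower again from 3 to 6 h. MYC had 101 and 127 spike-in scaled counts at 6 h against 133 and 97.6 at 3 h, a step of -0.01 (SE 0.18). NFKBIA had 36.2 and 64.2 at 6 h (-0.13), and ID1 and FOXA1 had steps of -0.04 and 0.16. MT-ND6, NEDD9 and DDX20 were lower again at 6 h, MT-ND6 at 7.1 and 10.7. ID2 changed by -3.02 from 3 to 6 h after -3.84 from 0 to 3 h, CEBPA by -2.94 after -3.25, and HAMP by -3.71 after -3.34, with 9.9 and 22.2 counts left. XBP1 (-1.97) and MT-ND2 (-1.66) also went on falling, at a slower step (adjusted p 0.00098 and 0.013 in limma). MT-RNR1 stood at 303578 and 333943 at 6 h, close to its 3 h values.

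**Figure D4:**
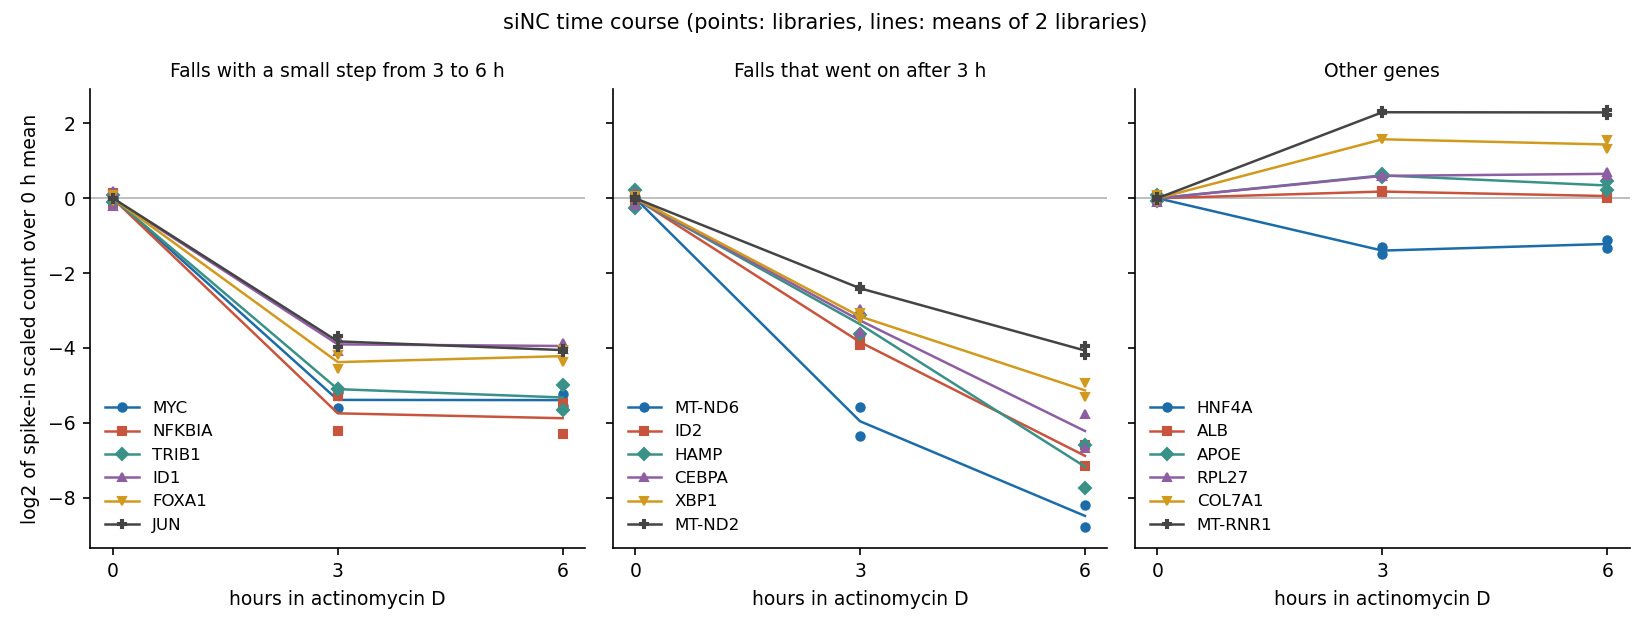
Log2 of the spike-in scaled count over the 0 h mean at 0, 3 and 6 h of actinomycin D in siNC (points are libraries, lines join means of 2 libraries) for genes chosen to show each course. MYC stays at the same level after 3 h (step -0.01), ID2 drops by a further 3.02, and MT-RNR1 stays up.

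The same 3 h in siCPSF6 cells show how far these changes depended on the control state. As deposited, where the upper quartile is set equal in every library, the median change was 0.25 in siCPSF6 and 0.26 in siNC. On the spike-in scale it was -0.28 in siCPSF6 and -0.43 in siNC, and the gap between these medians was not tested. As deposited, the change differed in 387 genes, 292 with a lower value in siNC (2.26%) and 95 with a higher one (0.734%). Of the 3327 genes lower on both scales in siNC, 283 were among those that differed. The count of 387 moved with many choices: it was 1025 with the replicate number as a block, 177 on the spike-in scale and 36 in the TPM table. It moved less with pseudocounts of 0.1 and 10 (389 and 398), median-ratio scaling (398), no filter (269) and a minimum mean of 100 (443). Without a single library it ran from 106 (siCPSF6 0 h replicate 1 left out) to 215 (siCPSF6 3 h replicate 2 left out), and each of the 8 libraries of the comparison lowered it by more than 1.5 times. Among the 897 list members 50 differed, 24 lower and 26 higher in siNC.

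ERRFI1 fell by 3.13 in siNC and by 1.65 in siCPSF6 as deposited, a difference of -1.49 (SE 0.15, adjusted p 0.00029 in limma). TRIB3 (-2.92 against -1.64), SMG8 (-3.39 against -2.10), SIAH2 (-2.90 against -1.67) and RHOB (-3.47 against -2.46) likewise fell further in siNC. These 5 differences also passed on the spike-in scale. JUND and XBP1 went the other way: JUND changed by -0.68 in siNC and by -2.43 in siCPSF6 (difference 1.75, SE 0.23), and XBP1 by -2.47 and -3.20, of which the JUND difference passed on the spike-in scale. Of 80 ribosomal protein genes 12 had a higher change in siNC as deposited, among them RPS21 (1.53 against 0.92). On the spike-in scale the difference was not called for RPS21 (0.45), RPS29 (0.51) or RPL27 (0.34). There 6 of all genes tested had a higher change in siNC and 171 a lower one. For MYC the difference was not called (-4.68 and -4.19, adjusted p 0.40 in limma).

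**Figure D5:**
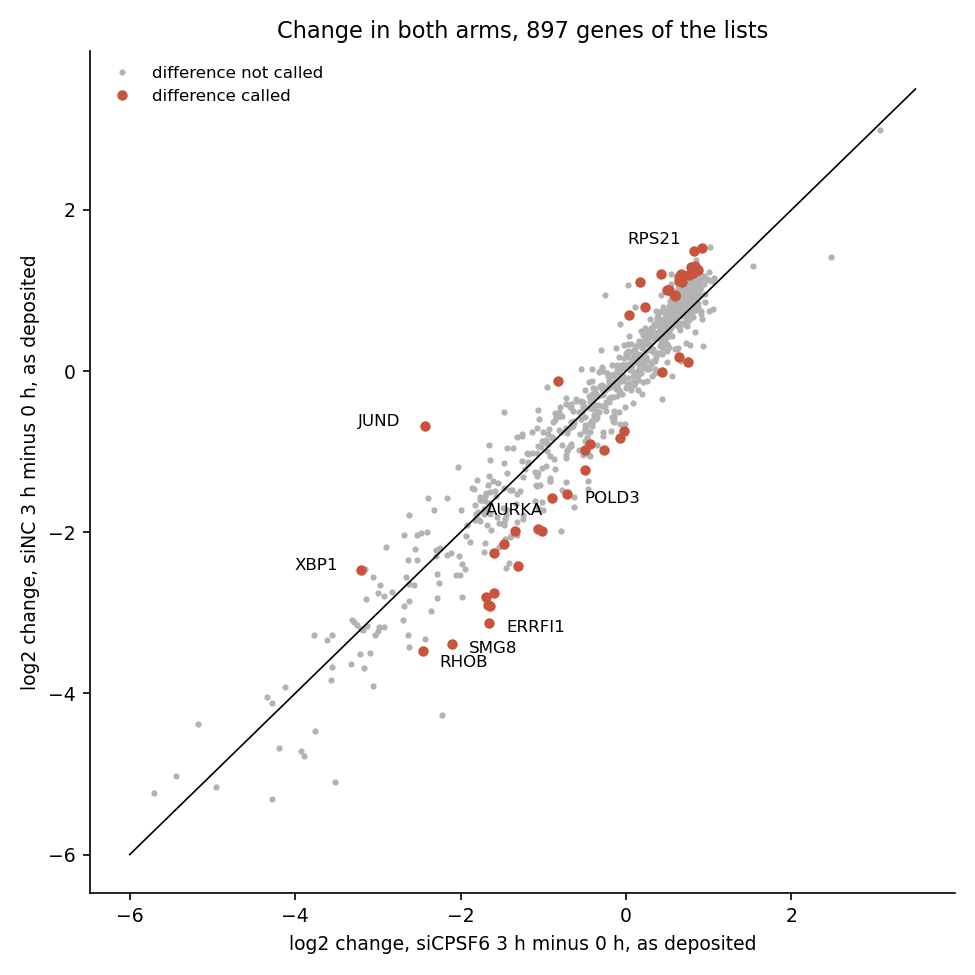
Log2 change from 0 to 3 h as deposited in siCPSF6 (x axis) and siNC (y axis) for 897 list members, with the line of equal change; large points are the 50 genes whose change differed between the arms. ERRFI1, SMG8 and RHOB lie below the line (a larger fall in siNC), JUND and XBP1 above it.

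Counts grow with transcript length while TPM do not, so the ratio of count to TPM gives an apparent length, here centred on the median of each library. This comparison was added after seeing the data, and its genes were chosen by their values. Over 10495 genes with a mean count of at least 100 and at least 0.2 TPM in every library the median absolute change in log2 apparent length from 0 to 3 h was 0.056. It was more than 0.5 lower in 140 genes and more than 0.5 higher in 74, with no overlap of the groups. SYNJ2, a phosphoinositide phosphatase, had log2 apparent lengths of 0.73 and 0.58 at 0 h and -0.62 and -0.54 at 3 h. Its count fell by 1.22 on the spike-in scale while the change of its spike-in scaled TPM was 0.07 (not called), so the tables give opposite signs. EIF1AD changed from -0.49 and -0.49 to -1.36 and -1.27. TNRC6B, a partner of Argonaute proteins, went from 1.60 and 1.51 to 2.38 and 2.51, and NEAT1 from 0.69 and 0.71 to 1.40 and 1.3. Some short transcripts moved up too: MT-ATP8, with a coding sequence of 207 bases, by 0.94, ATP5ME by 0.53 and RPS29 by 0.44. RPL36AL moved by 0.09. A shift in apparent length is therefore no measure of a change in transcript form, which was not tested.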

How the data were processed

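RNA was sequenced from 12 HepG2 libraries. Per the labels' protocols, ERCC spike-ins went into 5 µg of total RNA, from which a directional kit gave mRNA libraries. STAR, RSEM and build hg38 are named, per the submitters' processing notes. Not given in the sources used here are versions, the annotation and whether counting used strand. The deposited counts are a score: the authors scaled gene counts to an equal upper quartile and rounded them, so tests for raw counts were not used. The deposited TPM table, which sums to the same total in each library, was made by the authors over the same 22235 entries, 87 of them spike-ins.

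From these, log2(value + 1) was fitted with limma 3.58.1 (R 4.3.3; trend and robust) over all 12 libraries as 6 group means with 6 residual degrees of freedom. Tests covered genes averaging 20 counts or more (1 TPM or more), at a threshold of 0.05 after Benjamini-Hochberg adjustment. Because 1 is added, changes of low genes are understated. The fit was tested on simulated data. The members, the 30 gene lists and the rule for named genes were chosen with earlier results of these data known. The rule takes the 12 largest falls and 10 largest rises described in the text, up to 3 members of each list by smallest p, the 5 genes with the highest TPM, and MYC, ALB and CPSF6; 35 of the 144 genes named were chosen after their values were seen, and 5 genes that the rule names are not reported here. Lists overlap in some genes and were not tested as sets.

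Symbols were known for 22069 genes, and 21694 were found in GENCODE release 29; that may not be the authors' annotation. Of the 144 named genes 32 overlap another gene on their strand and 46 on the opposite strand only, and reads of such genes, of multicopy families and of mitochondrial genes with nuclear copies can be misassigned. Same-numbered libraries deviated together from their group means (correlations of 0.11 to 0.24 over all 15 pairs of groups). A pairing by replicate number is therefore possible, but it rests on the values alone. The reported changes, errors and calls come from the fit without the block and do not use such a pairing. With the block 9723 genes were called as deposited, 7734 on the spike-in scale, 4474 for the difference of steps and 1025 for the difference between arms. Replicates correlated at 0.9911 to 0.9931. The alternatives were pseudocounts of 0.1 and 10, dropping the filter or raising it to 100, the TPM table, limma without trend and robust settings, the replicate block, only the groups compared, each library left out, median-ratio scaling and 2 other spike-in factors. Genes of chromosomes 8 and M were not considered for printed sequence.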

Additional observations from a re-analysis of the deposited data

Results flagged for a closer look

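For 22 of the named genes the change from 0 to 3 h differed between siNC and siCPSF6 by a direct test (limma, adjusted p under 0.05, as deposited), and for 13 of them also on the spike-in scale. Values are the siNC change minus the siCPSF6 change on the log2 scale. Negative values, a larger fall in siNC, were found for ERRFI1 (-1.49), SMG8 (-1.29), TRIB3 (-1.28), SIAH2 (-1.23), ZNF274 (-1.16), BTG2 (-1.12), RHOB (-1.01), SOX4 (-0.96), EIF1AD (-0.92), POLD3 (-0.81), BCL2L1 (-0.72), MCL1 (-0.67), ZFP36L1 (-0.67) and AURKA (-0.65). Positive values were found for JUND (1.75), XBP1 (0.73), RPS29 (0.67), RPS21 (0.61), RPL27 (0.50), APOE (0.46) and ATP5F1D (0.41), of which JUND and XBP1 fell further in siCPSF6 and the other genes had positive changes in both arms as deposited. CPSF6, the gene silenced in the other arm, had a difference of 0.68, with changes of 0.66 in siNC and -0.02 in siCPSF6 as deposited. Of the positive differences, that of CPSF6 included, only that of JUND passed on the spike-in scale.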

How the results depend on the processing

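The 4 results are the 9258 genes called as deposited, the 6844 called on the spike-in scale, the 3260 called for the difference of steps and the 387 called for the difference between arms. The first 2 totals stayed within 1.5 times under every alternative, 6630 (TPM) to 9723 (replicate block) and 5491 (TPM) to 8531 (only the groups compared), with 8255 to 8553 and 5541 to 6144 when a library was left out. Their parts did not: the higher calls went from 5931 to 1408 in the TPM table as deposited, and from 535 to between 312 (without siNC 3 h replicate 2) and 1118 (only the groups compared) on the spike-in scale. The difference of steps was called in 2149 genes in the TPM table and in 5807 as deposited (3447 lower and 2360 higher), and in 1786 to 3729 with a library left out. The difference between arms was called in 138 genes without trend and robust settings, 672 with only the groups compared, 36 in the TPM table, 177 with spike-in scaling and 106 to 215 with a library left out. With the replicate block it was called in 1025 genes, the block also moved the plasma protein genes higher on the spike-in scale from 4 to 8 and the respiratory chain genes from 16 to 26, it called MDM2 and HK2 lower as deposited (-0.51 and -0.49), and it changed no call of a named gene besides these and that of F2. In the TPM table as deposited the sign turned for HNRNPD (-0.18), NR1H3 (-0.14), RPL36AL (-0.22), MT-CO1 (-0.12), MT-CO3 (-0.40), MT-ATP8 (-0.93), SYNJ2 (0.15) and ACTA2 (-0.04), and for SYNJ2 also after spike-in scaling (0.07); TPM have another median (-0.24 against 0.26), and further causes were not tested. On the spike-in scale 1969 of the named genes' alternative values kept their direction and call, 24 lost it and 10 gained it; as deposited these were 1814, 15 and 23. Few counts at 3 h limit the precision of the fastest class.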
